A study of Ambystoma mexicanum with 6 samples.

Results

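The SOX transcription factors are proteins that bind DNA through an HMG box similar to that of the sex-determining factor SRY. Their genes were examined in AL1, a wild-type line labelled as fibroblast, from the limb-regenerating salamander Ambystoma mexicanum (axolotl). Of 10 SOX symbols asked for, 8 were found (SOX2, SOX4, SOX5, SOX6, SOX8, SOX9, SOX10 and SOX11), on 9 of the 99126 gene models in the count table. SOX12 and SOX13 were not analysed here. Where a symbol had several models, the one with the highest mean count over the 6 libraries was to stand for it. This applied to SOX11 alone, whose 2 models both held 0 counts. Members were thus matched by symbol, and a model was to be selected on its mean count over all libraries, not on the difference between groups. The list of symbols itself was chosen with earlier results of these data known.

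Senescence, in which cells permanently stop dividing, was brought about in 3 samples by 24 h in 10 µM etoposide plus 1 µM nutlin-3a. They then spent 11 days in 1 µM nutlin-3a. Etoposide breaks DNA through topoisomerase, and nutlin-3a keeps MDM2 from binding p53. These samples are called treated. The other 3 samples received the solvent DMSO and were passaged during the 12 days so that they went on dividing, and all cells were harvested at day 14. Effects of the drugs, of senescence and of arrested division cannot be told apart in this design, and AL1 is a single line. Nothing in the labels ties the replicate libraries to separate cultures. The p-values therefore set the difference between groups only against the spread of these libraries within a group, and that spread may be technical. Library totals ran from 28604727 to 46686876 counts.

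SOX proteins bind in the minor groove of DNA, bend it sharply and usually act with partner factors that set where they work. The family is divided into subgroups by the similarity of the HMG box. SOX2, of subgroup B1, maintains pluripotent and neural progenitor cells. The C subgroup (SOX4, SOX11, SOX12) acts in progenitors of many tissues. The D subgroup (SOX5, SOX6, SOX13) lacks a transactivation domain of its own, and SOX5 and SOX6 work beside SOX9 in cartilage. The E subgroup (SOX8, SOX9, SOX10) specifies neural crest, and of its members SOX9 is required for cartilage and SOX10 for glia and pigment cells. These roles are known mainly from mouse, chick and frog.

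SOX2 and the E-subgroup genes SOX8 and SOX10 fell in treated cells, and no tested SOX gene was called higher. The SOX10 fall was not called under every setting tried. Of 8 genes found, 6 had enough counts to be tested (SOX2, SOX4, SOX6, SOX8, SOX9 and SOX10). By edgeR's quasi-likelihood test 3 of these 6 fell at an adjusted p under 0.05, 0 rose and 3 did not pass. Among all 17424 gene models tested, 26.8% were called lower, 25.5% higher and 52.3% in either direction, so that calls in general were frequent in this comparison. The 6 fitted log2 fold changes ran from −1.30 to −0.59, with a median of −0.92, where the median of all models tested was −0.03. At an unadjusted p under 0.05, 4 members were lower and 0 higher, beside 29.7% and 28% of all models. DESeq2 called 2 members lower and 0 higher, beside 18.2% and 19.9% of the 22766 models it gave an adjusted p. In bulk RNA, fewer cells that express a gene and less RNA of it per cell cannot be told apart.

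**Figure D1:**
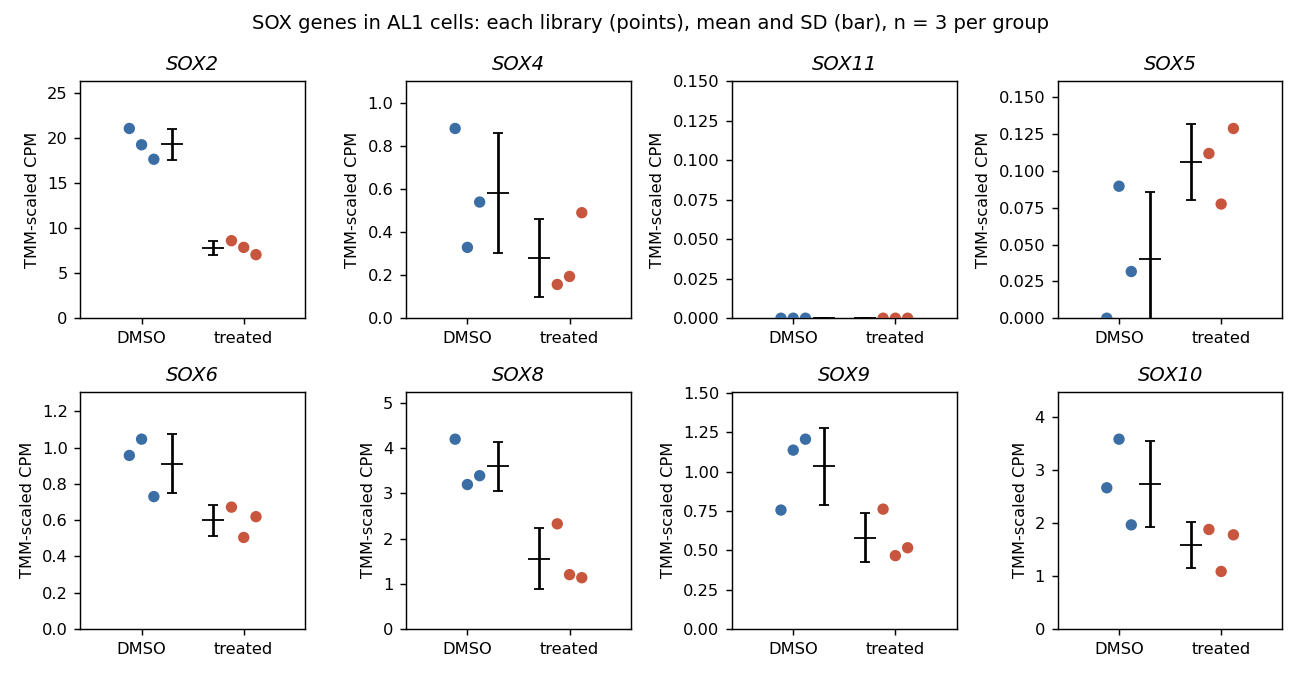
Level of the 8 SOX genes (TMM-scaled CPM, on axes that start at 0 and differ between panels) in each of the 3 DMSO and 3 treated libraries, as points, with the mean and SD of each group. SOX2, SOX6, SOX8 and SOX10 have every treated library below every DMSO library, SOX4, SOX5 and SOX9 overlap, and SOX11 is at 0.

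SOX2 was the most abundant of these genes. Levels are given as CPM, the counts of a gene relative to the scaled total of its library. Its model AMEX60DD001640 is a single block of 3214 bases on chromosome 10p of the AmexG_v6_DD assembly, from 771056786 to 771059999 on the plus strand. SOX2 measured 21.1, 19.3 and 17.7 CPM in the DMSO libraries and 8.62, 7.87 and 7.06 CPM in the treated libraries. Every DMSO library lay above every treated library by a wide gap. The group means were 19.3 ± 1.71 and 7.85 ± 0.777 CPM (SD, n = 3 per group). The log2 fold change was −1.30 (SE 0.14, 95% interval −1.60 to −0.996, edgeR adjusted p = 5.68e-06). The gene lies inside the span of 1 other model on the same strand, AMEX60DD001639, with which it shares 0 exon bases. That model held at most 7 counts in any library.

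SOX8, an E-subgroup gene that acts in neural crest and gonad, is AMEX60DD020747 on the minus strand of chromosome 2p (276162070 to 276185540), with 4 exon blocks. SOX8 measured 4.20, 3.20 and 3.39 CPM in DMSO and 2.33, 1.20 and 1.13 CPM in treated libraries. The groups did not overlap, although treated replicate 1 stood apart from the other treated libraries. The means were 3.60 ± 0.533 and 1.55 ± 0.670 CPM, and the log2 fold change was −1.18 (SE 0.27, 95% interval −1.77 to −0.59, edgeR adjusted p = 0.00261).

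SOX10, the E-subgroup factor of glia and pigment cells, is AMEX60DD029302 on the plus strand of chromosome 3q (334809083 to 334837765), also with 4 exon blocks. SOX10 measured 2.67, 3.59 and 1.97 CPM in DMSO and 1.88, 1.09 and 1.78 CPM in treated libraries. The lowest DMSO library and the highest treated library were nearly equal. The means were 2.74 ± 0.812 and 1.58 ± 0.432 CPM. The log2 fold change was −0.77 (SE 0.28, 95% interval −1.36 to −0.18, edgeR adjusted p = 0.0309). The call depended on single libraries: without DMSO replicate 1, DMSO replicate 2, treated replicate 2 or treated replicate 3 the adjusted p was 0.0694, 0.172, 0.0878 and 0.0503, with log2 fold changes of −0.80, −0.54, −0.57 and −0.85. DESeq2 gave −0.77 with an adjusted p of 0.0504.

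SOX9, the cartilage factor of the E subgroup, is AMEX60DD031236 on chromosome 3q as well (1207722897 to 1207730691, plus strand, 3 exon blocks). SOX9 measured 0.755, 1.14 and 1.21 CPM in DMSO and 0.761, 0.465 and 0.516 CPM in treated libraries. DMSO replicate 1 and treated replicate 1 were alike, and the other libraries were separated by group. The log2 fold change was −0.79 (SE 0.34, 95% interval −1.52 to −0.06), which did not pass after adjustment (edgeR adjusted p = 0.0655). Left out in turn, DMSO replicate 1 and treated replicate 1 each brought the SOX9 call past the threshold, with −0.99 (adjusted p = 0.0458) and −1.04 (adjusted p = 0.0352).

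SOX6, a D-subgroup gene, has the longest model, with 20 exon blocks and 11669 exon bases spread over 1034 kb of chromosome 11q (306558395 to 307592558, plus strand). SOX6 measured 0.956, 1.05 and 0.730 CPM in DMSO and 0.671, 0.504 and 0.619 CPM in treated libraries. The groups did not overlap, yet the log2 fold change of −0.59 (SE 0.32, 95% interval −1.28 to 0.10) did not pass (edgeR adjusted p = 0.140). Without overlap between groups and lower in treated cells were 4 of the 6 tested members (SOX2, SOX6, SOX8 and SOX10) and 31.4% of all models tested. Without overlap and higher were 0 members and 28.8% of all models, so that 60.2% of all models had no overlap in either direction. SOX5, the other D-subgroup gene found, is AMEX60DD006750 on chromosome 12p (277236067 to 277872293, minus strand). It had too few reads to be tested, with 0, 3 and 1 counts in DMSO and 5, 2 and 5 counts in treated libraries. The summed 4 and 12 counts have exact 95% Poisson intervals of 1.09 to 10.2 and 6.20 to 21.0, which overlap and cover counting error only.

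SOX4, a C-subgroup gene with a single exon block on chromosome 5p (1011607409 to 1011611898, minus strand), was low, and its libraries differed widely within each group. SOX4 measured 0.881, 0.329 and 0.539 CPM in DMSO and 0.157, 0.194 and 0.490 CPM in treated libraries. Treated replicate 3 lay within the DMSO range. The log2 fold change was −1.05 (SE 0.51, 95% interval −2.16 to 0.06, edgeR adjusted p = 0.103). Without treated replicate 3 it was −1.76 (adjusted p = 0.0276), without DMSO replicate 1 it was −0.61 (adjusted p = 0.438), and without treated replicate 1 it was −0.70 (adjusted p = 0.294).

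SOX11, of the same subgroup, had 0 counts in all 6 libraries on both of its models, and this does not show that the transcript was absent. The models AMEX60DD033320 and AMEX60DD033321 lie on the minus strand of chromosome 4p and end at the same base, 442394505. They share 2751 exon bases, which is the whole of the shorter model and 90.6% of the longer one, and 284 bases are left to the longer model alone. Of 249 models in the table whose exon bases were all shared with others on the same strand, 0 had a count in any library, against 35.8% of the 86972 models that share no exon base. Of 166 models with 90% to under 100% of their bases shared on the same strand, the class of the longer SOX11 model, 23 (13.9%) had a count. Models covered in the same way from the opposite strand, and from no model on their own strand, had a count in 5 of 2163 cases. The same condition touched SOX8 and SOX5 in part: 25.4% of the SOX8 exon bases and 14.6% of those of SOX5 are shared with an unnamed model on the opposite strand. The remaining SOX8 length was 3685 bases.

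**Figure D2:**
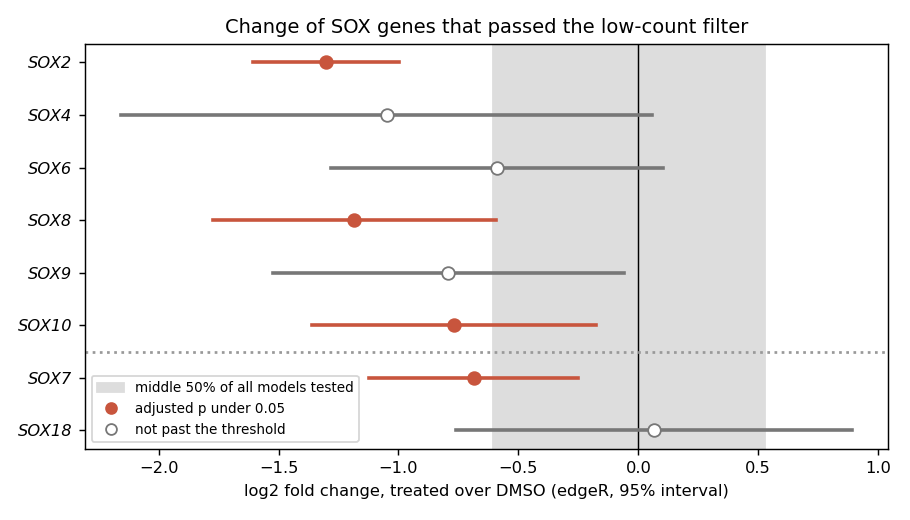
Log2 fold change (treated over DMSO) with its 95% interval for the 6 tested SOX genes, above the dotted line, and for SOX7 and SOX18, 2 further tested family genes, below it. The grey band is the middle 50% of all models tested, from −0.61 to 0.53; filled points passed an adjusted p of 0.05, and the SOX2 interval (−1.60 to −0.996) lies wholly below the band.

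To compare levels between genes, CPM was divided by the length of the gene model in kilobases. On this scale SOX2 stood at 6.02 ± 0.533 in DMSO and 2.44 ± 0.242 in treated libraries. SOX8 followed in DMSO at 0.729 ± 0.108 and SOX10 at 0.664 ± 0.197, which did not differ beyond their spread. In treated libraries SOX10 stood at 0.383 ± 0.105 and SOX8 at 0.315 ± 0.136, again within their spread. SOX9 came next with 0.278 ± 0.0652 and 0.156 ± 0.0425, then SOX4 with 0.130 ± 0.0621 and 0.0624 ± 0.0407 and SOX6 with 0.0780 ± 0.0140 and 0.0513 ± 0.00733, where SOX4 and SOX6 overlapped. SOX5 stood at 0.00423 ± 0.00475 and 0.0111 ± 0.00273. With the length of SOX8 reduced to the bases it does not share, a choice made after the data were seen, its level was 0.977 ± 0.145 in DMSO and 0.422 ± 0.182 in treated libraries. With full model lengths, SOX2 lay at percentile 69.0 of the level per length among all models tested. SOX10 and SOX8 lay at 31.1 and 31.0, SOX9 at 16.7, SOX4 at 6.80 and SOX6 at 3.85.

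Summed over the 8 genes, the level per length was 8.54, 7.99 and 7.17 in the DMSO libraries and 3.92, 3.18 and 3.17 in the treated libraries. SOX2 made up 75.04% to 76.8% of this sum in DMSO and 68.4% to 77.1% in treated libraries, so that its share overlapped between groups. Within the E subgroup, SOX8 held 50.0%, 35.5% and 46.2% of the summed level in DMSO and 41.7%, 38.5% and 28.7% in treated libraries. These SOX8 shares overlapped between groups. The sums and shares use the full SOX8 model length, of which 25.4% is shared with another model. For each of the 15 pairs of tested members the log2 ratio per library was compared between groups by an exact permutation test, two-sided, in which 3 against 3 libraries cannot give less than p = 0.1. The smallest p was 0.1, for SOX2 against SOX6 (a difference of −0.70 on the log2 scale, 0.75 after adjustment over the pairs). No pair could pass 0.05 in this test, which therefore does not show whether the members differed in fold change.

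**Figure D3:**
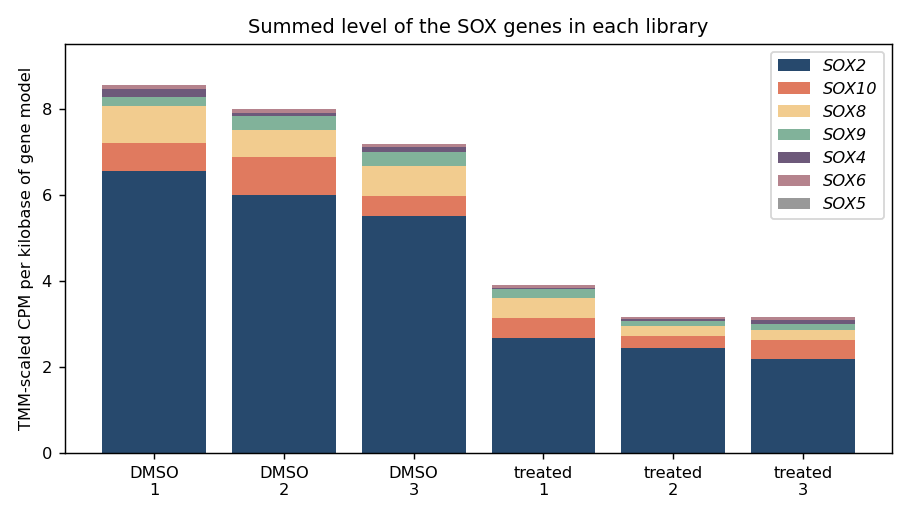
Stacked TMM-scaled CPM per kilobase of gene model for 7 SOX genes in each library (SOX11, at 0, adds nothing). SOX2 is the largest part of each bar, and the 3 treated bars (3.17 to 3.92) are lower than the 3 DMSO bars (7.17 to 8.54).

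The level of these genes relative to others rests on the scaling between libraries. TMM, the trimmed mean of M-values, gave scaling factors of 1.10 to 1.18 for DMSO and 0.780 to 0.958 for treated libraries, the lowest for treated replicate 2. With library size only, the median log2 fold change of all models moved from −0.03 to −0.40, the calls became 2314 higher and 7029 lower, and all 6 tested SOX members were called lower. The log2 fold changes of SOX2, SOX8 and SOX10 were then −1.67, −1.54 and −1.12. SOX2 and SOX8 passed the threshold under all 15 other settings tried, from −1.67 to −1.21 and from −1.62 to −0.99, and SOX10 under 10 of 15. The setting that summed the models of a symbol altered no counts, as only SOX11 has several and they held 0. Its values therefore repeated those reported and are no separate check. Each of the 6 tested members kept a negative log2 fold change under each setting that gave it a value.

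**Figure D4:**
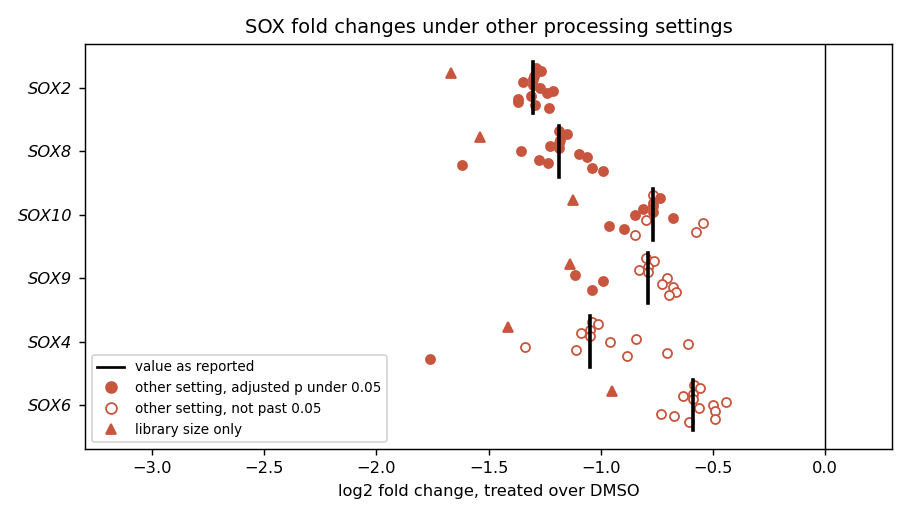
Log2 fold change of the 6 tested SOX genes as reported (black line) and under the other settings tried (points), with those past an adjusted p of 0.05 filled and library size only drawn as a triangle. SOX2 and SOX8 are filled throughout, and SOX10, SOX9, SOX4 and SOX6 are filled under some settings.

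Of 10 further SOX family symbols looked up, 6 were in the table and 2 had enough counts for a test. SOX7, an F-subgroup gene known from blood vessels, measured 3.95, 3.53 and 3.90 CPM in DMSO and 2.64, 1.86 and 2.50 CPM in treated libraries, with no overlap. It fell by 0.69 on the log2 scale (SE 0.20, edgeR adjusted p = 0.0116). SOX18 of the same subgroup measured 0.831, 0.717 and 1.08 CPM in DMSO and 0.716, 0.504 and 1.47 CPM in treated libraries, which spanned the DMSO values. Its log2 fold change was 0.06 (95% interval −0.76 to 0.89, edgeR adjusted p = 0.900) and was −0.49 without treated replicate 3. SOX1 and SOX3, B1-subgroup relatives of SOX2, had 0 counts in every library. SOX19, also placed in the B1 subgroup, was in the table but not among the 10 symbols looked up. Of its 2 models, AMEX60DD012772 had 3 counts in treated replicate 1 and 0 elsewhere, and the other had 0 in every library. SOX14 had 0, 1 and 1 counts in DMSO and 0 in treated libraries, and SOX30 had 3 counts in treated replicate 1 and 0 elsewhere. A floor of 3 counts equalled 0.0671 to 0.116 scaled CPM, so levels under it could not be seen.

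The TCF/LEF factors, which carry a related HMG box and mediate Wnt signalling, and other HMG-box factors gave 3 lower and 1 higher among 6 tested, where 26.8% of all models were lower and 25.5% higher. Their median log2 fold change was −0.42. LEF1 fell from 8.05 ± 0.766 to 3.20 ± 0.494 CPM (edgeR log2 fold change −1.33, SE 0.18, adjusted p = 3.64e-05). TCF7 fell from 1.37 ± 0.190 to 0.554 ± 0.338 CPM. Its log2 fold change was −1.24 and reached −1.87 without treated replicate 1, and its call was lost without treated replicate 3 (−1.03, adjusted p = 0.0574). HBP1, a repressor that restrains the cell cycle, rose from 17.1 ± 1.45 to 26.4 ± 1.52 CPM (log2 fold change 0.63). The HBP1 call was lost with library size only (0.26, adjusted p = 0.190).

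Transcription factors of the neural crest, where the E subgroup acts, fell in 7 of 13 tested members and rose in 1, beside 26.8% and 25.5% of all models. The median was −0.35. TFAP2C fell from 22.7 ± 1.30 to 8.40 ± 1.48 CPM (edgeR log2 fold change −1.43, adjusted p = 4.11e-06). The homeobox gene DLX5 fell from 23.0 ± 1.45 to 8.50 ± 2.28 CPM and MSX1, another homeobox gene, from 22.8 ± 1.501 to 12.9 ± 0.392 CPM. The gene that rose was SNAI1, from 4.93 ± 0.350 to 7.02 ± 1.88 CPM with overlapping groups (log2 fold change 0.52, adjusted p = 0.0443), named after its value was seen. That count was 0 with DESeq2, with library size only, without a low-count filter, on thinned counts, and without any library except treated replicate 2.

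Genes of glia and pigment cells, many of them under SOX10 in other vertebrates, moved both ways. Of 9 tested, 2 rose and 2 fell, shares near those of all models (25.5% and 26.8%). Their median was −0.09, and under other settings it ran from −0.43 with library size only to 0.25 without a low-count filter. EGR2, a factor of myelinating Schwann cells, rose from 9.98 ± 0.128 to 15.7 ± 3.53 CPM, a call lost with library size only (0.31, adjusted p = 0.260). NGFR, the low-affinity neurotrophin receptor gene, fell from 32.2 ± 2.04 to 21.9 ± 5.59 CPM, a call lost without DMSO replicate 1 (−0.52, adjusted p = 0.0504). The other gene that fell was TYR, for the pigment enzyme tyrosinase, from 1.45 ± 0.219 to 0.581 ± 0.372 CPM, also named after its value was seen. The number of these genes that fell was 0 without DMSO replicate 1 and 1 without DMSO replicate 2, and the number that rose was 1 with library size only. DCT, KIT and EDNRB had 0 counts in every library, and TYRP1 and MLANA at most 2.

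Cartilage genes, which SOX9 drives together with SOX5 and SOX6 in mouse, gave 4 higher and 4 lower of 11 tested, beside 25.5% and 26.8% of all models, and a median of 0.32. The median was −0.06 with library size only, −0.22 without treated replicate 2 and −0.09 when models under a mean of 1 CPM were dropped. COMP, a cartilage matrix protein gene, rose from 8.29 ± 1.05 to 45.9 ± 7.54 CPM (edgeR log2 fold change 2.47, adjusted p = 3.97e-08). HAPLN1, the link protein gene, rose from 1, 5 and 13 counts to 94, 48 and 49. Its log2 fold change was 3.21, with 4.33 without DMSO replicate 3 and 2.62 without DMSO replicate 1. MIA, a secreted protein gene of cartilage and melanoma, rose from 89.3 ± 12.2 to 164 ± 38.1 CPM. COL11A1, a fibrillar collagen gene, fell from 2.97 ± 0.0804 to 1.44 ± 0.147 CPM and COL9A2 from 3.45 ± 0.188 to 2.07 ± 0.526 CPM. These 2 were named after their values were seen. The defining cartilage genes COL2A1 and ACAN held at most 3 and 5 counts in any library, and MATN1 held 0.

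Among stem cell and neural progenitor genes, where SOX2 is best known, 2 of 7 tested rose and 1 fell, beside 25.5% and 26.8% of all models, with a median of 0.12. That median was −0.25 with library size only, −0.06 without DMSO replicate 2 and −0.08 without DMSO replicate 3. NES, the nestin gene, rose from 26.1 ± 1.96 to 36.2 ± 1.04 CPM, a call lost with library size only (0.10, adjusted p = 0.554). PAX6, an eye and neural tube factor, rose from 0.891 ± 0.192 to 1.95 ± 0.482 CPM. HES1, which encodes a Notch-responsive repressor, fell from 8.80 ± 2.75 to 1.56 ± 1.20 CPM (edgeR log2 fold change −2.47, adjusted p = 0.000387). The HES1 value was −3.27 without treated replicate 1 and −1.97 without treated replicate 3. NANOG, LIN28A, OTX2 and HES5 had 0 counts in every library. Of 4 tested genes tied to the C subgroup in neurons, 2 fell, 1 rose and 1 did not pass, where 26.8% of all models were lower and 25.5% higher. Their median was −0.45. STMN1, for the tubulin-binding protein stathmin, fell from 233 ± 26.9 to 57.9 ± 4.26 CPM. DCX, the doublecortin gene, fell from 9.09 ± 0.182 to 5.35 ± 1.36 CPM, and MAP2, a microtubule protein gene, rose from 1.42 ± 0.281 to 3.38 ± 0.413 CPM.

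For the 3 SOX genes that fell, likeness was measured as Pearson's r of log2 CPM over the 6 libraries against 10405 named models. These values are descriptions: the libraries are shared, and the difference between the groups alone gives a high r to any gene that fell with a small spread. For SOX2, 1176 models reached an r of at least 0.95, and the closest were MKNK2, CDCA7 and CEP41 at 0.999 each. For SOX8, 347 models did, with RIN1, BOC and CDK17 closest at 0.998, 0.998 and 0.997. For SOX10 only 43 models did, and the closest was MITF at 0.993, ahead of SMG8 at 0.984 and CD83 at 0.983. Each closest model was picked as the highest of 10405 values over 6 libraries, so its high r partly reflects that choice. MITF held only 12 to 53 counts per library. MITF, the master regulator gene of pigment cells, measured 1.28, 1.58 and 0.825 CPM in DMSO and 0.828, 0.465 and 0.722 CPM in treated libraries. DMSO replicate 3, the lowest DMSO library for SOX10, was also the lowest for MITF, and treated replicate 2 was the lowest of all for both. MITF itself did not pass the test (edgeR log2 fold change −0.84, adjusted p = 0.0501).

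**Figure D5:**
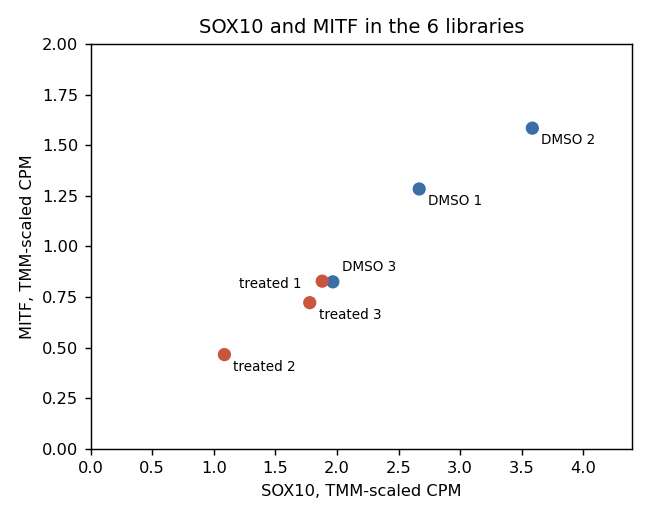
TMM-scaled CPM of SOX10 (horizontal) and MITF (vertical) in the 3 DMSO (blue) and 3 treated (red) libraries. MITF was picked as the closest of 10405 models to SOX10, so the likeness shown partly reflects that choice. The libraries follow a similar order in both genes, from treated replicate 2 (1.09 and 0.465 CPM) to DMSO replicate 2 (3.59 and 1.58 CPM), with DMSO replicate 3 beside treated replicate 1.

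The labelled cell type was checked against markers. Of 15 fibroblast markers 13 were in the table and 8 exceeded 3 counts in every library, with a summed level of 7241 to 7494 CPM in DMSO and 7695 to 9414 CPM in treated libraries, most of it VIM. By edgeR 3 of the 13 fibroblast markers found fell and 0 rose, where 26.8% of all models tested were lower and 25.5% higher. COL1A1 fell from 241 ± 27.3 to 157 ± 41.8 CPM (edgeR adjusted p = 0.00749) and COL1A2 from 57.6 ± 4.35 to 32.8 ± 7.93 CPM (edgeR adjusted p = 0.000797). FN1 fell from 149.6 ± 34.9 to 73.5 ± 9.24 CPM (edgeR adjusted p = 0.000117). VIM did not pass (log2 fold change 0.28, adjusted p = 0.135), and neither did COL3A1 or PDGFRB, while DCN, THY1 and COL5A1 held at most 3 counts in any library. Of 5 chondrocyte markers found, 0 exceeded 3 counts in every library, and their summed level was 0.126 to 0.571 CPM in DMSO and 1.495 to 2.22 CPM in treated libraries. Most of the treated sum was HAPLN1 (0.196 ± 0.198 CPM in DMSO and 1.74 ± 0.433 CPM in treated libraries). COL2A1, ACAN and CNMD held at most 5 counts in any library, and MATN1 held 0. Pigment cell markers, of which 2 of 5 exceeded 3 counts in every library (PMEL and TYR), summed to 2.54 to 2.92 CPM in DMSO and 1.63 to 2.04 CPM in treated libraries. TYR fell, as given above, and PMEL stood at 1.32 ± 0.160 and 1.22 ± 0.435 CPM, which did not pass. A summed level of the Schwann cell markers is not reported here. Of these markers ERBB3 had 13, 8 and 6 counts with DMSO, and the treated libraries had 0, 1 and 15. Neural stem cell markers exceeded 3 counts in every library for 2 of 3 found (NES and PAX6). The 3 summed to 25.6 to 29.1 CPM in DMSO and 37.4 to 39.1 CPM in treated libraries, where SOX2 was lower. Nearly all of this sum was NES (26.1 ± 1.96 and 36.2 ± 1.04 CPM), whose call was lost with library size only, as given above. Epithelial markers summed to 1294 to 1417 CPM and 933 to 1147 CPM, nearly all of it KRT18, which fell (log2 fold change −0.40, edgeR adjusted p = 0.0237), while KRT5 rose from 0.901 ± 0.338 to 3.34 ± 0.785 CPM (adjusted p = 0.000141). Summed muscle, endothelial and leukocyte markers stayed at or below 1.52 CPM in each library. The leukocyte sum was 0.448 to 0.730 CPM in DMSO and 1.01 to 1.52 CPM in treated libraries. Of its 5 markers 1 was called higher and 0 lower, beside 25.5% and 26.8% of all models tested. The rise was in CD3E (0.0311 ± 0.0317 and 0.734 ± 0.140 CPM), while MARCO stood at 0.455 ± 0.175 and 0.457 ± 0.210 CPM. PTPRC held 0 counts in every library, and CSF1R and MPEG1 at most 3. The endothelial sum was 0.317 to 0.359 CPM and 0.504 to 0.649 CPM, with 0 called, and the muscle sum overlapped between groups. The part of other cell types in the SOX values was not tested.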

How the data were processed

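Polyadenylated RNA of 3 DMSO and 3 treated AL1 samples was measured. A modified Smart-seq2 protocol with poly(dT) capture was applied to 1000 ng of RNA per sample and read as pairs of 100 bp, per the labels' protocols, which mention neither molecular identifiers nor strand. The authors deposited raw counts per gene model. Per the submitters' processing notes, bcl2fastq 2.20.0, STAR 2.7.7a and featureCounts 2.0.1 were used, without stated roles. The deposited table's other column used here, the gene model length in bases, is as given per the file headers. The assembly AmexG_v6_DD is named by the table.

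Spike-in rows (92, with 0 counts) were left out. Symbols were compared in upper case without a .L or .S ending. In R 4.3.3 with edgeR 4.0.16, filterByExpr left 17424 models, libraries were scaled by TMM, and treated and DMSO libraries were tested for a difference with a robust quasi-likelihood fit (F-test, two-sided), with Benjamini-Hochberg adjustment over all models tested and a threshold of 0.05. SEs and 95% intervals were derived from the F statistic. The fit was tested on simulated data. Replicate libraries differed by 5.63 to 68.8 chi-square units per degree of freedom, so none was counted once for 2.

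The SOX members, lists and tests were chosen with earlier results of these data known. The genes named are all members, further SOX symbols, up to 3 called genes of smallest p per list, and the 3 named models most alike each of the 3 called members of highest level. Alternatives were 3 other scalings, 2 other filters, DESeq2 1.42.0, dispersions that were not robust, thinned counts, each library left out in turn, and summed models. Some genes of the lists are not reported here, and sequences were not used here.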

Additional observations from a re-analysis of the deposited data

How the results depend on the processing

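SOX2, SOX8, SOX10, SOX9, SOX4 and SOX6 kept their direction under each of the 15 alternatives that gave them a value. Summing the models of a symbol left their counts unchanged, so that this alternative only repeated the reported values. The number of SOX members called lower was 6 with library size only, where 2314 models were higher and 7029 lower, and ran from 2 to 4 when a library was left out. The genes called were not always SOX2, SOX8 and SOX10: without DMSO replicate 1, SOX9 replaced SOX10. With a library left out, all models called lower ran from 3884 to 4731 and those called higher from 3706 to 4503, and 0 SOX members were called higher under any setting. SOX18 changed sign with library size only (−0.29), on thinned counts (−0.035), without DMSO replicate 2 (−0.07) and without treated replicate 3 (−0.49), reached 0.32 without treated replicate 2, and passed the threshold under none of its 13 alternatives. SOX9 (−1.14), SOX4 (−1.41) and SOX6 (−0.95) passed with library size only, where the median of all models moved to −0.40. SOX9 also passed on thinned counts (−1.12), a single random draw in which the median of all models stayed near its reported value, at −0.04. The causes were not tested. With models of at least 1 CPM, SOX4, SOX6, SOX9 and SOX18 were not tested, and SOX11 had no value under any setting. No paired analysis was possible because the labels give no replicate numbers. SOX4, SOX5, SOX6 and SOX9 held at most 38 counts in any library, which limits the precision of their values.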

Other observations

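A gene model described in the table as Sox-21-B-like, under the symbol LOC109080723, was called lower in treated cells. It was chosen after its values were seen. The model is a single exon block of 3422 bases on the minus strand of chromosome 7q (130264218 to 130267639), and SOX21 belongs to the B2 subgroup, whose members, in chick, repress genes that the B1 factors activate. LOC109080723 held 29, 27 and 10 counts in DMSO and 3, 0 and 0 counts in treated libraries. Its summed level was 23.0-fold higher in DMSO, with an exact 95% interval of 7.52 to 114 that covers counting error only. All 3 treated counts came from treated replicate 1, and without that library the treated sum was 0. EdgeR gave an adjusted p of 0.000335, and it was called lower under each of the 13 alternatives that gave a value. Models described as Sox-17-alpha-A-like had 0 counts in every library.

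POLR2F, an RNA polymerase subunit gene that neighbours SOX10 in mammals too, lies 118 kb beyond SOX10, with 3298 to 4903 counts per library. The 3 nearest models on each side of SOX9 held 0 counts in every library, and the nearest one before it lies 4361 kb away.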
